A study of Mus musculus with 4 samples.

Results

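The genes described here encode 10 proteins that hepatocytes secrete into plasma, namely *Alb*, *Apoa1*, *Apob*, *Apoe*, *Trf*, *Ttr*, *Fga*, *Fgb*, *Ahsg*, and *Hamp*, of 21887 protein-coding genes in the GRCm38 gene table used. They were taken by name, and for each the H3K27ac peaks in the gene body plus 10 kb on each side were collected. H3K27ac, the acetylation of lysine 27 on histone H3, marks active promoters and enhancers. It was measured by ChIP-Seq in mouse liver sinusoidal endothelial cells (LSECs), in 2 libraries numbered 2 and 3 in the sample records and called replicates here, and each has an input library that was not analysed here. The sample records give no genotype, strain, age, sex, or treatment of the mice. In the paper's general isolation methods, LSECs were selected from perfused mouse liver with anti-CD146 beads and kept in culture for 4 hours. Its ChIP-Seq methods name isolation and cross-linking but no culture step, and which mice supplied the ChIP libraries is not given.

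Hepatocytes supply most plasma proteins, and their genes are among the most strongly transcribed in liver. They are switched on by liver-enriched factors such as HNF1, HNF4, and C/EBP, and they are not characteristic of endothelial cells. They show what the mark looked like at loci that belong chiefly to a neighbouring cell type. *Apoe* is the member best known to be made outside hepatocytes as well, by macrophages among others.

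The deposited lists held 26975 peaks in replicate 2 and 64498 in replicate 3, and of these 99.2% and 37.7% overlapped a peak of the other library by at least 1 bp (such peaks are called shared here). Fold enrichment is the authors' ratio of a peak's signal to background. It is not on a common scale in the 2 libraries, so each peak is also given its percentile in its own list. The depth of the libraries is unknown. Of 17 LSEC markers, 12 had a peak within 1 kb of a gene end in replicate 2 and 16 in replicate 3. The shares of all protein-coding genes were 43.4% and 53.9%. *Lyve1*, *Cdh5*, and *Pecam1* were among the markers with a peak in both libraries. *Mrc1* (percentile 6.14), *Clec4g* (11.3), *Stab2* (27.6), and *Tek* (54.4) had one in replicate 3 only, and *Erg* had none.

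Most of these genes had no H3K27ac peak called at their ends in either library. A shared peak lay within 1 kb of a gene end in 2 of the 10 genes, *Apoe* and *Trf*, where 43.4% of all protein-coding genes had one. Replicate 2 alone also gave these 2 genes, against 43.4% of all genes. Replicate 3 gave 4 genes, adding *Apoa1* and *Apob*, against 53.9%. In the wider window of the gene body plus 10 kb on each side, a shared peak was found at 4 genes, *Alb*, *Apoe*, *Trf*, and *Fgb*, against 58.4% of all genes. Replicate 2 had a peak in 5 windows and replicate 3 in 6, against 58.6% and 69.9%. *Ttr*, *Fga*, and *Ahsg* had no peak of either library in their windows. With 10 genes and 1 condition no test was made, and the counts describe these genes only.

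**Figure D1:**
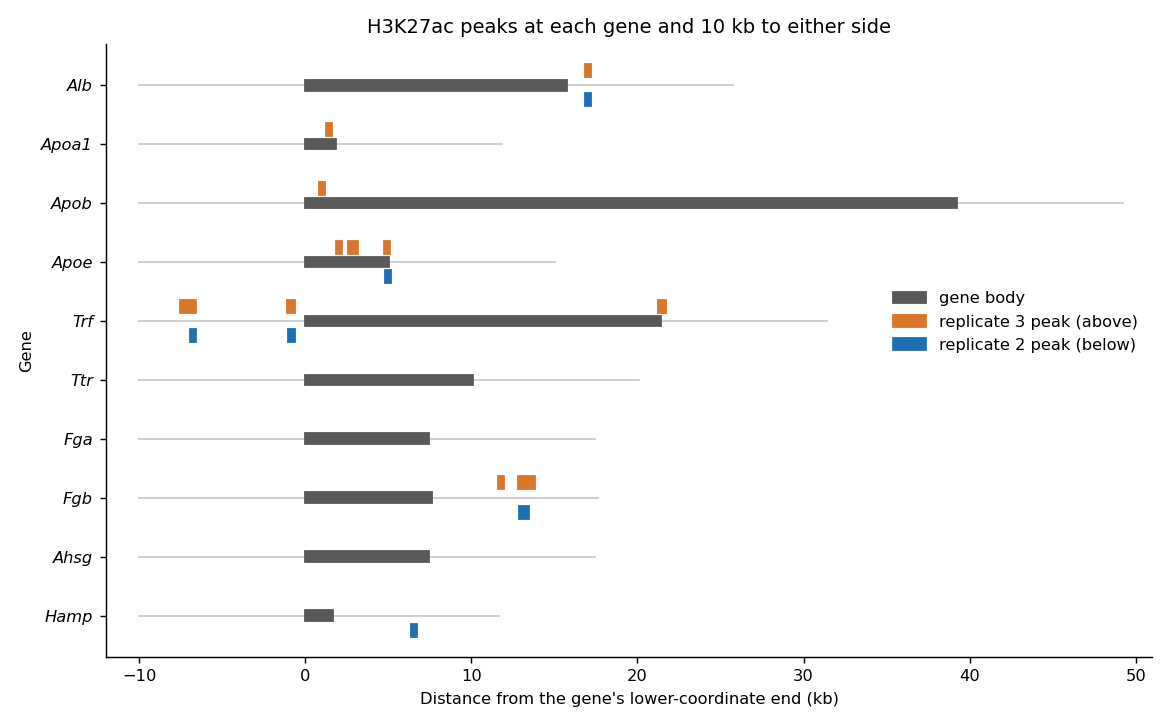
H3K27ac peaks of replicate 3 (above each line) and replicate 2 (below) at the 10 genes, by distance in kb from the gene's lower-coordinate end; dark bars are gene bodies, grey lines the 10 kb on each side, and narrow peaks are widened to stay visible. The windows of *Ttr*, *Fga*, and *Ahsg* are empty, and at *Apoa1* and *Apob* the single peak is from replicate 3.

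The sequences before the start sites are set beside these counts, since CpG-rich promoters carry H3K27ac in many cell types. Whether CpG content accounts for the members' counts was not tested. The 250 bases before the start site are shown for *Alb*, as a member with no peak within 10 kb of its start site, for *Apoe*, as the member with a replicate 3 peak across its start site, and for *Fgb* beside its neighbour *Plrg1*, a splicing factor gene whose start lies in the *Fgb* window. Sequences are from RefSeq (GRCm38.p6), 5′ to 3′ on the gene's strand, and capitals mark CpG.
Alb, chr5:90460620-90460869, plus strand: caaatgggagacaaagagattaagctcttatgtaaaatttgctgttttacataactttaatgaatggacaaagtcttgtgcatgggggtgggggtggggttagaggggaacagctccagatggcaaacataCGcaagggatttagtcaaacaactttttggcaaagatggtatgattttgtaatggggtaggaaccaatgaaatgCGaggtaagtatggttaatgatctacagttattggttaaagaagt
Apoe, chr7:19699189-19699438, minus strand: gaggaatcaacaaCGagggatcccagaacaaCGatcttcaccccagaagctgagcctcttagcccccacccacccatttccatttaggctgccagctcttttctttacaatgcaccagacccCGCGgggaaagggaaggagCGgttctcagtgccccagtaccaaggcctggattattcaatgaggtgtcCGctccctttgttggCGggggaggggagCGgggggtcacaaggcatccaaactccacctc
Fgb, chr3:83049864-83050113, minus strand: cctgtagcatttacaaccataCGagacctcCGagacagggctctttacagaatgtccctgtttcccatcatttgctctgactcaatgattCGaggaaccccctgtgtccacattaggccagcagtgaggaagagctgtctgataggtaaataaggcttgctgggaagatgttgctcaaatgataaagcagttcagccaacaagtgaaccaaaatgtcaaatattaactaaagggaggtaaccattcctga
Plrg1, chr3:83055288-83055537, plus strand: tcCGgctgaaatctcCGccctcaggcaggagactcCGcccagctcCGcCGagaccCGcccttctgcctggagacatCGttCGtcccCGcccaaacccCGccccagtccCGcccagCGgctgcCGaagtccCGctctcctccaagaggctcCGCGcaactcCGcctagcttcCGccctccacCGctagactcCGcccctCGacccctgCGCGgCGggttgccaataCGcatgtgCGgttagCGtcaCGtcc

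The *Alb* stretch holds 2 CpG, the *Fgb* stretch 3, the *Apoe* stretch 8, and the *Plrg1* stretch 28. The promoter table had entries for 8 of the 10 genes and none for *Trf* and *Ttr*. Over the 10 start sites of these 8 genes, 3 of them at *Apoe*, the CpG number ran from 2 to 10 with a median of 5, against a median of 10 over 21263 start sites of 17492 protein-coding genes. The C+G content ran from 39.2% at *Alb* to 58% at *Apoa1*. The member start sites were thus mostly CpG-poor or intermediate.

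Across all protein-coding genes the CpG number went with the mark. A replicate 3 peak lay within 1 kb of 12.5% of start sites with 0 to 4 CpG, 46.6% of those with 5 to 9, and 83.6% of those with 10 or more. In replicate 2 the shares were 6.74%, 32.7%, and 73.5%. The 5 member start sites with 0 to 4 CpG, at *Alb*, *Apoa1*, *Fga*, *Fgb*, and *Hamp*, had no peak of either library within 1 kb, so their lack of a peak is shared by most start sites of that class. Of the 4 with 5 to 9 CpG, the *Apob* site and both *Apoe* sites had a replicate 3 peak within 1 kb and *Ahsg* had none. The remaining *Apoe* site, with 10 CpG, lay inside a replicate 3 peak. No member start site in the table had a replicate 2 peak within 1 kb. Counted by gene, a replicate 3 peak lay within 1 kb of a start site in 2 of 8 members and a replicate 2 peak in 0 of 8, against 54.4% and 45.7% of 17492 genes.

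**Figure D2:**
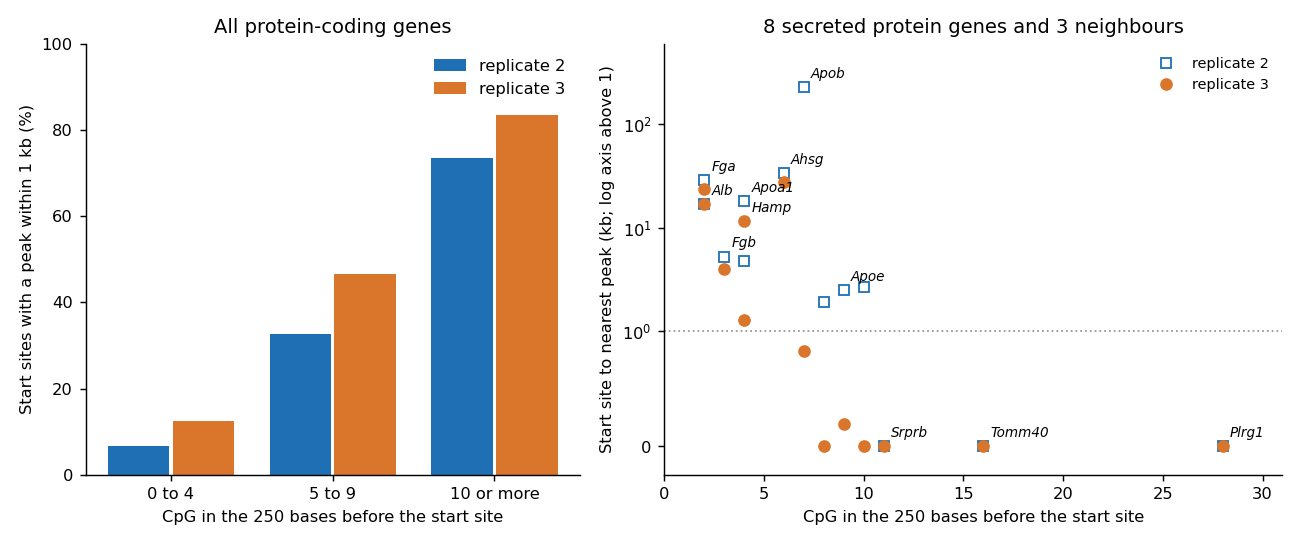
Left, percent of start sites of all protein-coding genes with a peak within 1 kb, by the number of CpG in the 250 bases before the site. Right, distance from the start site to the nearest peak (kb, log axis above 1; dotted line, 1 kb) for the 8 member genes in the promoter table and 3 neighbours; of the members only *Apob* and *Apoe* have replicate 3 points under the line and none has a replicate 2 point there, while the 3 neighbours have both.

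Short motifs were also counted in the same 250 bases, on both strands, and none of the 3 motifs contains another. GTTAAT, an arm of the palindromic site of the liver factor HNF1, was present before 4 of the 10 member start sites (*Alb*, *Fga*, *Fgb*, and 1 of the *Apoe* sites), against 5.86% of all start sites. TATAAA was present before 2, at *Apob* and another *Apoe* site, against 11.6%, and CCAAT before 1, at *Alb*, against 35.4%. The shares are over start sites of any CpG number and were not matched to the members, which were poorer in CpG. The 10 start sites come from 8 genes and some of the *Apoe* stretches overlap, so they are not separate units. The motifs were not among the planned measures. These are letter matches in a short window and do not show binding.

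Among the carriers of hormones, metals, and small molecules, *Alb* encodes albumin, the most abundant plasma protein. Its gene (chr5:90460870-90476602, plus strand) had no peak in its body or within 1 kb of its ends. A shared region lay just past its 3′ end, at chr5:90477734-90478098. The replicate 2 peak began 1176 bp beyond the gene and was 7.93-fold enriched, at percentile 35.7 of its list. The replicate 3 peak began 1132 bp beyond the gene and was 16.9-fold enriched (percentile 70.9). No other gene end of the table lay within 1 kb of it, and the *Alb* start site was 16908 bp away in replicate 2 and 16864 bp in replicate 3. The region is therefore the nearest case outside the 1 kb limit, and a limit of 2.5 kb would raise the count of genes with a shared gene-end peak from 2 to 3 by adding *Alb*. The share of all genes at 2.5 kb is not given.

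*Ttr* encodes transthyretin, the carrier of thyroxine and retinol-binding protein. The nearest peak to its gene body was 39.2 kb away in replicate 2 and 23.9 kb away in replicate 3. The gene body was nearer to a peak in 69.8% and 74.5% of all protein-coding genes.

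*Trf* encodes transferrin, which carries iron in plasma. Its window held the most peaks of the 10, with 2 of replicate 2 and 4 of replicate 3, though some of these lay within 1 kb of an end of *Srprb*. The gene lies at chr9:103208876-103230286. The strongest peak of this window was shared and lay outside the gene body, 599 bp from the lower-coordinate end in replicate 2 and 589 bp in replicate 3, together at chr9:103207755-103208287. In replicate 2 the enrichment was 15.9-fold (percentile 74.1), and in replicate 3 it was 78.8-fold (percentile 97.0). Of all genes with a gene-end peak, 49.0% in replicate 2 and 83.3% in replicate 3 had a weaker strongest one by percentile. At the opposite end, replicate 3 had a further peak across the gene end, at chr9:103230111-103230574, enriched 11.8-fold (percentile 60.6), and replicate 2 had none.

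The tables used give no strand for *Trf*, so these peaks were not assigned to its 5′ or 3′ end. The other shared region in the *Trf* window, at chr9:103201705-103202328, covers the start site of *Srprb*, which encodes a subunit of the signal recognition particle receptor used for protein secretion. The enrichment there was 13.6-fold in replicate 2 (percentile 67.0) and 31.7-fold in replicate 3 (percentile 84.1). The remaining replicate 3 peak, next to it, was 3.91-fold enriched (percentile 4.04).

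Among the apolipoproteins, *Apoa1* encodes the main protein of high-density lipoprotein. Its gene (chr9:46228630-46230469, plus strand) had 1 peak, from replicate 3, inside the gene body at chr9:46229903-46230251. The peak lay 218 bp from the 3′ end and 1273 bp from the 5′ end, so it counts as a gene-end peak by its 3′ end. It was 11.4-fold enriched (percentile 59.2). The nearest replicate 2 peak was 16.5 kb from the gene.

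*Apob* encodes the structural protein of very-low- and low-density lipoproteins. Its gene (chr12:7977629-8016839, plus strand) also had 1 peak, from replicate 3, at chr12:7978507-7978768. It lay 878 bp inside the 5′ end and was 11.4-fold enriched (percentile 59.5). The nearest replicate 2 peak was 191 kb from the gene body, farther than for 84.5% of all protein-coding genes. With windows of 50 kb, 9 of the 10 genes had a shared peak, and *Apob* was the exception. The share of all genes at that width is not given, so this count has no background to be read against. Among the replicate 3 peaks enriched to within 10% of the *Apob* or *Apoa1* value, 30.7% overlapped replicate 2, so most peaks of this strength were not called there.

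*Apoe* encodes the ligand by which lipoprotein remnants are cleared. Its gene (chr7:19696244-19701310, minus strand) had 3 peaks of replicate 3 and 1 of replicate 2, all within or across the end of the gene body. The shared region, at chr7:19701030-19701341, lay across the outermost 5′ end and reached the 3′ end of *Tomm40*, a mitochondrial import gene, so it cannot be assigned to either gene by position. It was 7.46-fold enriched in replicate 2 and 6.21-fold in replicate 3, at percentile 32.3 of both lists. Among replicate 3 peaks of like strength, 5.57% overlapped replicate 2, so few replicate 3 peaks as weak as this were shared. This does not hold for replicate 2, where 99.2% of all peaks were shared.

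The other *Apoe* peaks were from replicate 3 only, and each covered a listed start site. The peak at chr7:19698838-19699447 covered the start at 19699188, whose preceding bases are printed above, and it was 10.5-fold enriched (percentile 56.5). The peak at chr7:19698118-19698431 covered the start at 19698398, and was 8.54-fold enriched (percentile 47.9). Among replicate 3 peaks of like strength, 25.5% and 15.2% overlapped replicate 2. At the start sites of *Apoe* the mark was thus called in 1 library, and the shared call rests on the region next to *Tomm40*. With start sites in place of gene ends, 0 of 8 genes had a shared peak within 1 kb, against 45.6% of all genes in the promoter table.

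**Figure D3:**
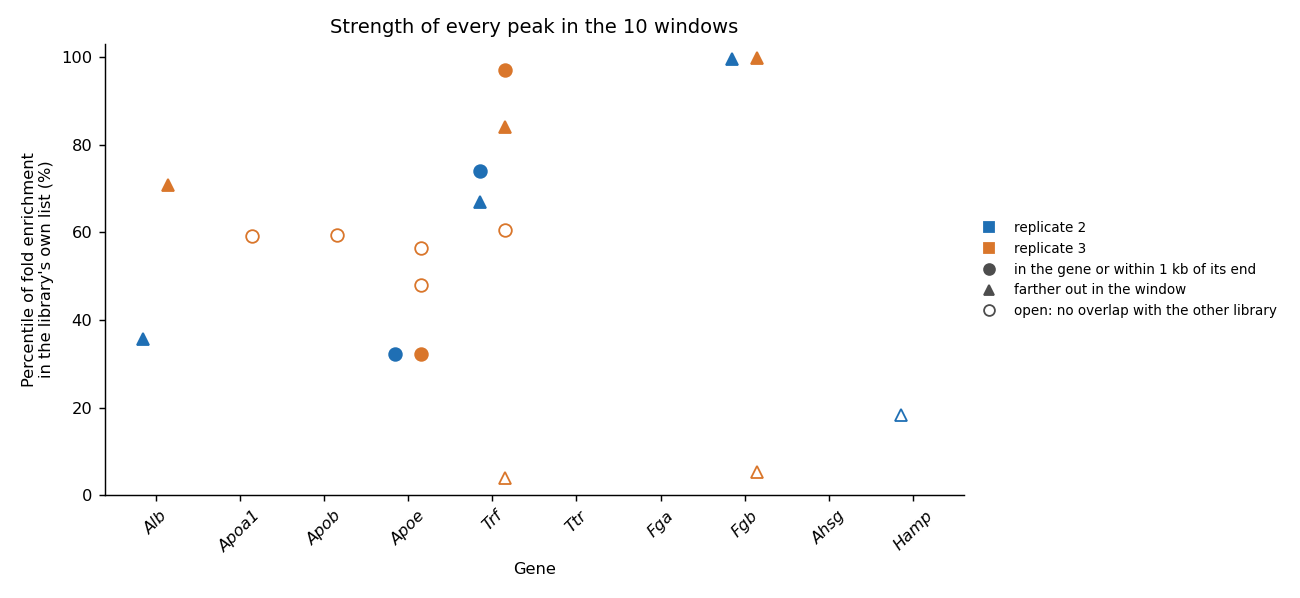
Percentile of fold enrichment, in its own list, of every peak in the 10 windows, for replicate 2 (blue) and replicate 3 (orange). Circles lie in the gene or within 1 kb of its end, triangles farther out, and open symbols overlap no peak of the other library; the circles lie at percentile 60.6 or below except the shared peak of *Trf*.

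*Fga* and *Fgb* encode chains of fibrinogen, the precursor of fibrin in clots, and lie next to each other on chromosome 3, so their windows overlap. Neither gene had a peak in its body or within 1 kb of an end. For *Fga* (chr3:83026153-83033627, plus strand) the nearest peaks were 21.5 kb away in replicate 2 and 20.3 kb away in replicate 3. The *Fgb* window (chr3:83042246-83049863 plus 10 kb, minus strand) held 1 shared region, at chr3:83055062-83056077, which covered the start site of *Plrg1*. It was enriched 48.8-fold in replicate 2 (percentile 99.7) and 141-fold in replicate 3 (percentile 99.8), which made it the strongest region in any of the 10 windows. It lay 5277 bp from *Fgb* in replicate 2 and 5199 bp in replicate 3. A replicate 3 peak between them was 4.13-fold enriched (percentile 5.41). The CpG-rich *Plrg1* start and the CpG-poor *Fgb* start printed above thus lay a few kb apart, the former with the mark called and the latter without. Whether their CpG numbers account for this was not tested.

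*Ahsg* encodes fetuin-A, a plasma inhibitor of mineral deposition. Its gene (chr16:22892015-22899451, plus strand) had no peak in the window. The nearest peaks were 34 kb away in replicate 2 and 20.5 kb away in replicate 3.

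*Hamp* encodes hepcidin, the hormone that lowers iron export by ferroportin. Its gene (chr7:30942368-30944029, minus strand) had no peak at its ends. The window held 1 peak, from replicate 2, at chr7:30948825-30949006, within the neighbouring gene *Usf2*, 4796 bp from *Hamp*. It was 6.10-fold enriched (percentile 18.4). Peaks of this kind were rare, since 226 replicate 2 peaks, or 0.838% of the list, overlapped no replicate 3 peak. The nearest replicate 3 peak to *Hamp* was 11.6 kb away.

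Of the 3 shared regions that lay more than 1 kb from a member's own ends, those in the *Trf* and *Fgb* windows covered the start sites of *Srprb* and *Plrg1*. The one past *Alb* was therefore the only such region with no end of another protein-coding gene within 1 kb. None of the 3 lay inside a member's gene body. Peaks of replicate 2 overlapped 1 of the 10 gene bodies and those of replicate 3 overlapped 4, against 49.5% and 61.4% of all protein-coding genes. A shared peak overlapped 1, that of *Apoe*, against 49.4%.

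Split by end for the 8 genes with a strand in the tables, a replicate 2 peak lay within 1 kb of the 5′ end at 1 gene (*Apoe*) and a replicate 3 peak at 2 (*Apob* and *Apoe*), against 42.7% and 51.7% of 17492 genes, and a shared peak at 1, against 42.7%. At the 3′ end replicate 3 had a peak at 1 gene (*Apoa1*), against 11.0% of genes. Replicate 2 and the shared peaks gave 0 of 8 there, against 4.48% and 4.47%. By the 1 kb limit the *Apoa1* peak was thus at the end where peaks were less frequent over all genes. In this gene of 1840 bp it also lay 1273 bp from the 5′ end, so that placement rests on the limit.

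At the gene ends that did carry a peak, the peaks were mostly weak for that position. Over all protein-coding genes with a gene-end peak, the strongest one had a median percentile of 75.0 in replicate 2 (9498 genes) and 87.6 in replicate 3 (11792 genes). In replicate 3, *Apoa1*, *Apob*, and *Apoe* lay at percentiles of 59.2, 59.5, and 32.3, with 14.5%, 14.8%, and 5.50% of those genes below them. *Trf* lay above that median in replicate 3 and, at a percentile of 74.1, just below it in replicate 2. Such weakness was not particular to the members. Most LSEC markers with a gene-end peak also lay below these medians, such as *Pecam1* at percentiles of 67.0 and 63.4 in replicates 2 and 3. Some lay above in a library, such as *Lyve1* at 87.9 in replicate 3, only just over that median. In replicate 2 *Lyve1* stood at 65.4, below the median there.

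Lists of related genes were counted in the same way, and the share of all protein-coding genes with a shared gene-end peak (43.4%) applies to each. Of 36 genes for other secreted liver proteins, such as the remaining apolipoproteins, protease inhibitors, and coagulation factors, 3 (8.33%) had a shared peak at a gene end (*Apoa2*, *Apoa5*, and *Itih1*), and *Cfb* had a peak in replicate 3 only. An end of *Apoa2* lies within 1 kb of an end of *Tomm40l*. Of 15 hepatocyte enzymes 1 (6.67%) had a shared peak, *Ass1*, which makes argininosuccinate. Of 11 hepatocyte transcription factors 4 (36.4%) had one, *Cebpa*, *Foxa3*, *Nr1h4*, and *Nr1i2*, a share near that of all genes. Ends of other genes also lie within 1 kb of an end of *Foxa3* (*Sympk*) and of *Cfb* (*C2* and *Nelfe*). Which gene such peaks belong to was not determined.

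Of 12 receptors and transporters that handle the secreted proteins or their cargo, 7 had a shared gene-end peak (58.3%, against 43.4% of all genes). Among these, *Tfrc*, the transferrin receptor, had a strongest gene-end peak enriched 20.1-fold in replicate 2 (percentile 83.2) and 40.1-fold in replicate 3 (percentile 88.1). *Slc40a1*, the iron exporter ferroportin that hepcidin binds, had 9.49-fold (percentile 47.8) and 29.3-fold (82.6). *Fcgrt*, part of the receptor that recycles albumin, had 13.6-fold (67.0) and 21.9-fold (76.9). An end of *Fcgrt* lies within 1 kb of an end of *Rcn3*. *Abca1*, which loads cholesterol onto apolipoprotein A-I, had 21.7-fold (percentile 85.9) and 65.3-fold (95.1). *Lrp1*, *Scarb1*, and *Gpihbp1* made up the rest, with 6.10-fold to 6.78-fold in replicate 2 (percentiles 15.3 to 25.3). In replicate 3 they had up to 22.5-fold (percentiles 65.9 to 77.5). Differences between the lists, or from all genes, were not tested. No shared gene-end peak was found at 7 Kupffer cell, 8 hepatic stellate cell, and 5 cholangiocyte markers or at 10 genes of tissues absent from liver, and replicate 3 had a peak at *Col1a1* and *Epcam*. The part of chromatin from hepatocytes in the replicate 3 peaks at *Apoa1*, *Apob*, *Apoe*, and *Trf* was not tested.

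**Figure D4:**
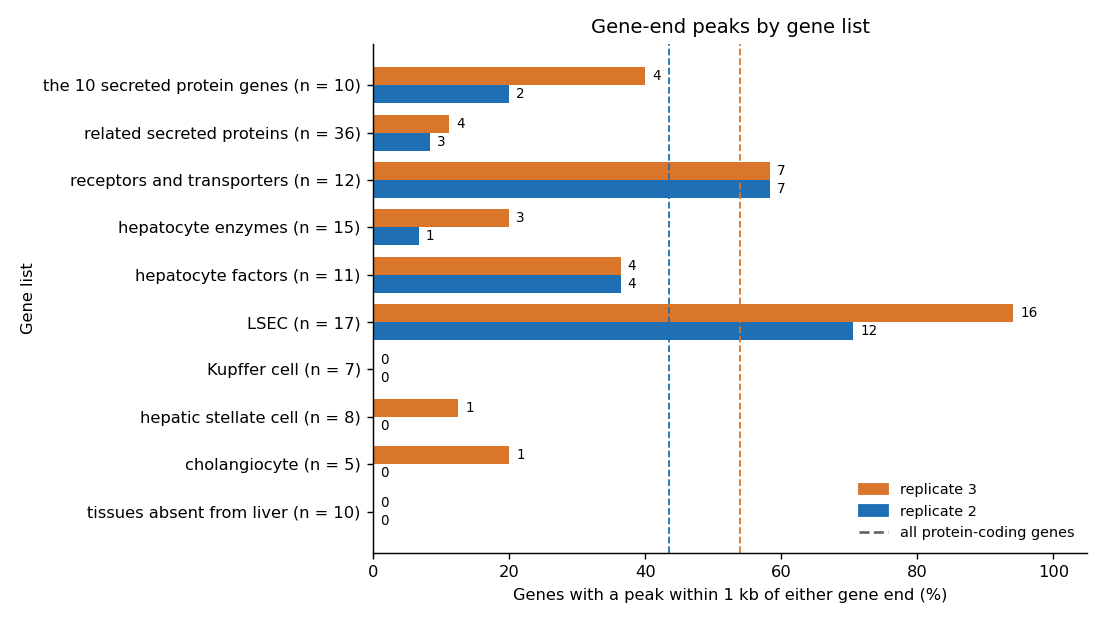
Percent of the genes in each list with a peak within 1 kb of either gene end, in replicate 3 (orange) and replicate 2 (blue), with the number of genes at each bar and dashed lines for all protein-coding genes. The 10 secreted protein genes stand at 4 and 2 genes, left of the dashed lines, and the LSEC markers at 16 and 12, right of them.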

How the data were processed

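Per the submitters' processing notes, reads were handled with cutadapt 0.4.4, BWA 0.7.17, Picard 1.67, MACS2 2.0.10, and bedtools 2.27.1 on build mm10, which is GRCm38. The notes as used here give no role or order, and whether the inputs entered the calls is not given. The authors deposited 1 peak list per library, with the fold enrichment (a ratio), the −log10 p-value, the −log10 q-value, and a score that rescales the latter. The score was not used. No read counts were given, so depth is unknown, and a more sensitive library yields more peaks.

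Gene bodies were from the RefSeq GRCm38.p6 table, and start sites, strands, and sequences from its promoter table. A gene had a shared peak where a peak of each library lay in the interval and each overlapped the other library by at least 1 bp. Exons and introns were not told apart. No test was made, since the design has 1 condition. The members and lists were chosen with earlier results of these data known. One gene of the list of receptors and transporters is not among the 12 counted and is not reported here. Genes named are the members, genes with an end within 1 kb of a peak in a member's window, and list genes with a shared gene-end peak. *Usf2*, *Cfb*, *C2*, *Nelfe*, *Tomm40l*, *Sympk*, *Rcn3*, *Col1a1*, *Epcam*, *Stab2*, *Clec4g*, *Mrc1*, *Tek*, and *Erg* lie outside that rule and were named after their values were seen. Of the LSEC markers with a shared gene-end peak, 3 stand as examples. The overlap code recovered the overlaps planted in simulated lists. Alternatives changed the q-value, number of peaks, overlap, window, gene end, ranking, or library. Calculations were run in Python 3.11.15 with pandas 2.3.3, numpy 2.4.6, and scipy 1.17.1, and figures drawn with matplotlib 3.10.9.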

Additional observations from a re-analysis of the deposited data

How the results depend on the processing

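No paired analysis was possible because no input library was analysed and the H3K27ac libraries are of 1 condition. Over 11 results and 40 alternatives, 20 stayed within their limit, which was 1.5 times for a count and the 95% Wilson interval for a percentile, and 20 did not. That interval is narrow for lists this long, so the shift of *Trf* in replicate 2 from 74.1 to 74.7 counted as outside it. It does not measure how certain a gene's rank is. The count of 2 genes with a shared gene-end peak was 1 with both lists trimmed to equal length by p-value, 1 with 5′ ends only, and 0 with the start sites of the promoter table, an alternative chosen after seeing the data, and with either library alone it was 2 or 4. The settings with 5′ ends and with start sites leave out *Trf*, which has no strand in the tables. The replicate 2 count of 2 was 1 with 5′ ends and 0 with start sites, and the replicate 3 count of 4 was 2 with lists of equal length, with 5′ ends, and with start sites. The 3 distal shared regions were 1 when ends of other protein-coding genes were left out, 0 within gene bodies, and 20 within 50 kb, and with either library alone they were 4 or 7. The 4 windows with a shared peak were 1 for gene bodies and 9 for 50 kb, and with either library alone 5 or 6. No share of all genes is given for 50 kb or for lists of equal length, so those counts show only how the members' numbers moved. Ranked by −log10 p, the percentiles were 57.3 for *Apoa1*, 31.5 and 36.5 for *Apoe*, and 74.7 and 96.3 for *Trf* in replicates 2 and 3. The causes were not tested beyond what each alternative removes. Since depth is unknown, the lack of a call in replicate 2 is not evidence that the mark was missing.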
